A study of Gallus gallus with 18 samples.

Results

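The genes described here encode the collagens, laminins, nidogens and the basement membrane proteoglycans perlecan and agrin of the chicken retinal pigment epithelium (RPE). They were chosen by name: every row whose symbol is a collagen chain, a laminin chain, *NID1*, *NID2*, *HSPG2* or *AGRN* was taken, which gave 38 genes of the 18336 in the table. The 38 are 26 collagen chains, 9 laminin chains, *NID1*, *HSPG2* and *AGRN*. RNA-seq was performed on RPE at embryonic day 5 (E5) and embryonic day 4 (E4), in 3 conditions at each stage: 6 h after surgical removal of the neural retina with FGF2 delivered on a heparin bead (6hPR + FGF2), 6 h after the same surgery without FGF2 (6hPR), and unoperated RPE (developing). No group carries a transgene or mutation. Each of the 6 groups has 3 libraries, and by the study's methods each library pools 3 RPE sheets. This makes the pool the unit of replication (n = 3 in every group), and p-values measure the spread between pools. In the main fit that spread was pooled over all 6 groups for each gene, and was not taken from the groups compared alone. The study's labels give White Leghorn embryos, whereas its methods give SPAFAS eggs for RNA-seq. All values are normalized counts, that is, reads per gene divided by a size factor for the library; they are not divided by gene length, so levels of different genes are not compared.

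Fibrillar collagens (I, II, III, V) assemble into the cable-like fibrils of connective tissue and vitreous, and fibril-associated collagens (IX, XII, XIV, XX, XXII) decorate the surface of such fibrils. Collagen VI forms beaded filaments and collagen VIII a hexagonal lattice. Basement membranes are sheets in which a laminin network, anchored to cells through integrins and dystroglycan, is linked by nidogen and the heparan sulfate proteoglycans perlecan and agrin to a collagen IV network. The RPE secretes such a sheet on its outer face, where it becomes the inner layer of Bruch's membrane, the matrix between the RPE and the choroidal vessels, of which collagen VIII is also a part.

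Reads on genes came to between 50.7 and 73.0 M per library, and the 38 genes together took between 0.739% and 1.23% of them. All 13 RPE and pigment markers examined were present, none at 0 in every library of a group. The tissue also held RNA of other cells, given as summed normalized counts of fixed marker lists: periocular mesenchyme (15 genes) 32170 to 76104, endothelium (7 genes of 11 listed) 18872 to 39390, and erythrocytes (8 genes of 11 listed) 122525 to 558973 over the 18 libraries. E5 developing replicate 2 stood apart by its neural retina progenitor markers (6 genes of 7 listed), which summed to 2423, 15581 and 575 in replicates 1, 2 and 3 of that group. In bulk tissue, fewer cells of a type and less RNA per cell cannot be told apart.

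Of the 38 genes, 35 averaged 50 or more normalized counts over the 18 libraries, and the other 3 were *LAMB3*, *COL25A1* and *COL28A1*. By class, the genes with a row were 6 of 11 listed fibrillar collagens, 7 of 10 fibril-associated collagens, 2 of 6 collagen IV chains, 6 of 11 other network and beaded filament collagens, 4 of 5 transmembrane and other collagens, 1 of 2 multiplexins, 9 of 12 laminin chains, and 3 of 4 nidogens and proteoglycans. The spread between libraries was taken as the median, over the 35 genes averaging 50 or more, of the SD of log2 values. It was 0.167 in E5 6hPR + FGF2, 0.148 in E5 6hPR, 0.339 in E5 developing, 0.227 in E4 6hPR + FGF2, 0.274 in E4 6hPR and 0.146 in E4 developing RPE. The summed counts of the 38 genes were 742209, 547457 and 730004 in E5 developing RPE, against 441348, 461094 and 472331 in E4 developing RPE. All 3 E5 developing libraries were above all 3 E4 developing libraries, and replicate 2 was the lowest of the E5 group.

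**Figure D1:**
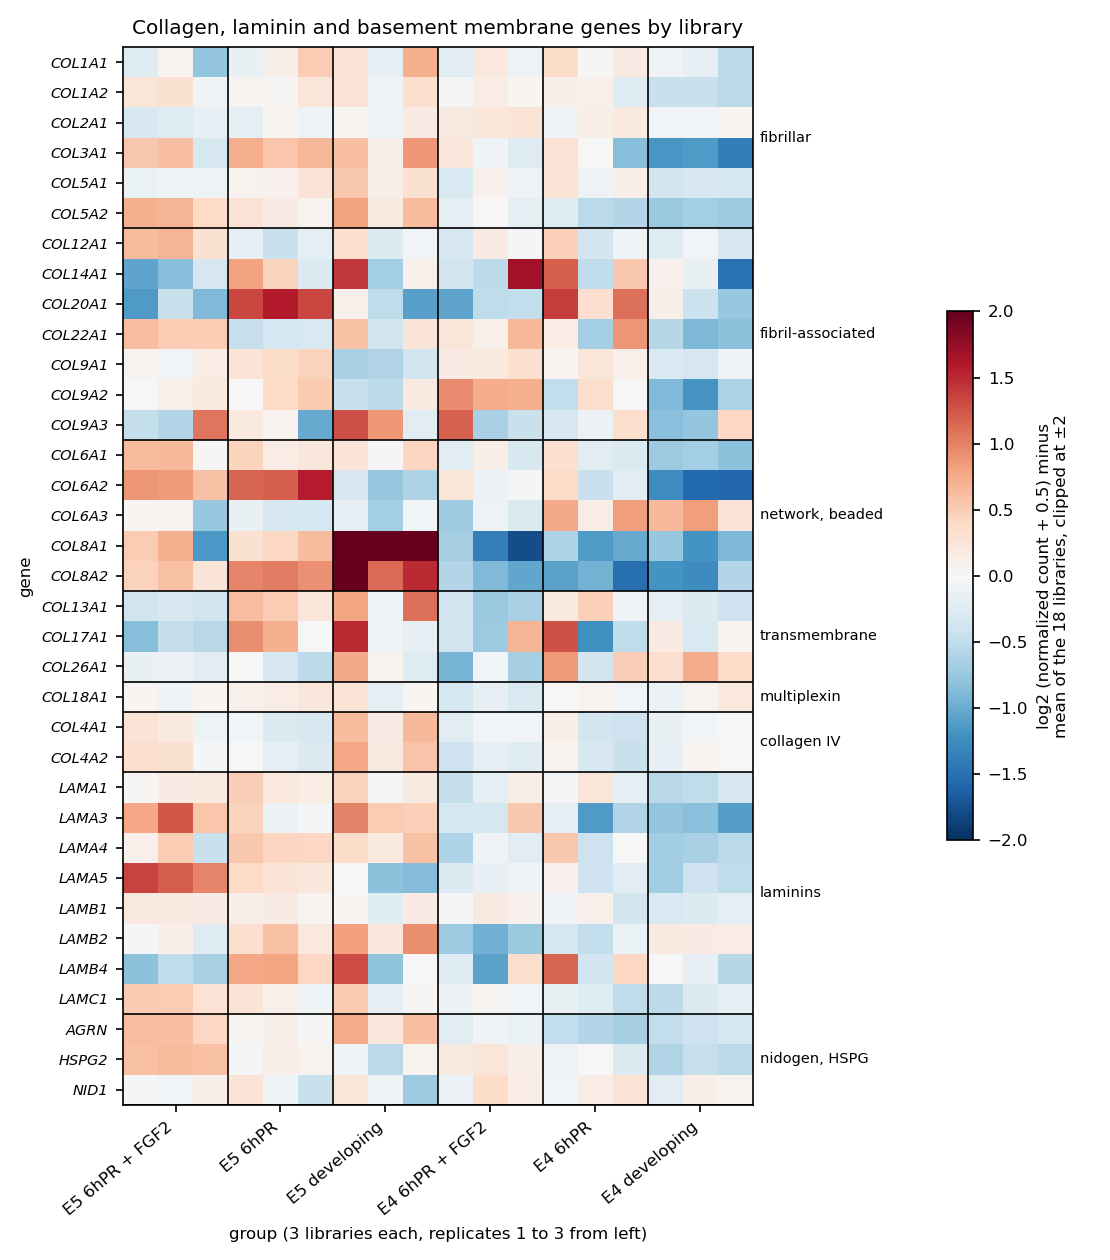
Each cell is the log2 normalized count of 1 gene (rows, by class) in 1 library (columns, by group) minus that gene's mean over the 18 libraries, clipped at ±2, for the 35 genes whose mean reached 50. The *COL8A1* and *COL8A2* rows are highest in the 3 E5 developing libraries, and *COL6A2* is below its mean in all 6 developing libraries.

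The first question was which matrix genes differed between the stages, since E4 RPE can be reprogrammed to neural retina by FGF2 and E5 RPE cannot. Changes are log2 fold changes ± SE from a limma fit of all 18 libraries, and genes with a Benjamini-Hochberg adjusted p up to 0.05 are named as called. In developing RPE, 21 of the 38 genes were called between E5 and E4, 19 higher and 2 lower at E5, where 22.0% of the 18287 genes tested were called (10.8% higher, 11.1% lower). The median over the 38 genes was 0.55, against 0.00 over all genes. In 6hPR RPE, 8 of the 38 were called (7 higher, 1 lower; all genes 19.7%, with 11.3% higher and 8.41% lower; median 0.25), and in 6hPR + FGF2 RPE 15 were called (13 higher, 2 lower; all genes 29.5%, with 16.7% higher and 12.8% lower; median 0.23). Under quantile normalization the 6hPR calls were 5 higher and 2 lower, where 1802 of all 18287 genes were called higher and 1974 lower. *COL5A2*, *COL6A2*, *COL8A1*, *COL8A2*, *LAMB2* and *AGRN* were called higher at E5 in all 3 conditions, and none of the 38 was called lower in all 3. The share of all genes called in all 3 conditions was not computed, so this tally has no background to be read against.

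These counts moved with single libraries. The share of all genes called with a library left out was not computed, so such counts, here and below, have no background to be read against. Counts under alternative settings, here and below, likewise have no background unless the share or number of all genes is given beside them. In developing RPE, 13 genes were called without E4 developing replicate 1 or E5 developing replicate 1, 16 without E4 developing replicate 2 or E5 developing replicate 3, and 22 without E5 developing replicate 2, the library with neural retina markers. In 6hPR RPE, 5 were called without E4 6hPR replicate 3, E5 6hPR replicate 2 or E5 6hPR replicate 3. In 6hPR + FGF2 RPE, 9 were called without E4 replicate 1, 8 without E5 replicate 1 and 7 without E5 replicate 2. The calls that held with every library left out and under all 9 alternative settings were those of *AGRN*, *COL1A2*, *COL3A1*, *COL5A1*, *COL5A2*, *COL6A1*, *COL6A2*, *COL8A1*, *COL8A2*, *LAMA1*, *LAMA3* and *LAMA4* in developing RPE (12 of 21). In 6hPR RPE they were *AGRN*, *COL6A2*, *COL8A2* and *LAMB2* (4 of 8), and in 6hPR + FGF2 RPE *AGRN*, *COL2A1*, *COL5A2*, *COL6A2*, *COL8A2*, *LAMA5* and *LAMB2* (7 of 15).

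**Figure D2:**
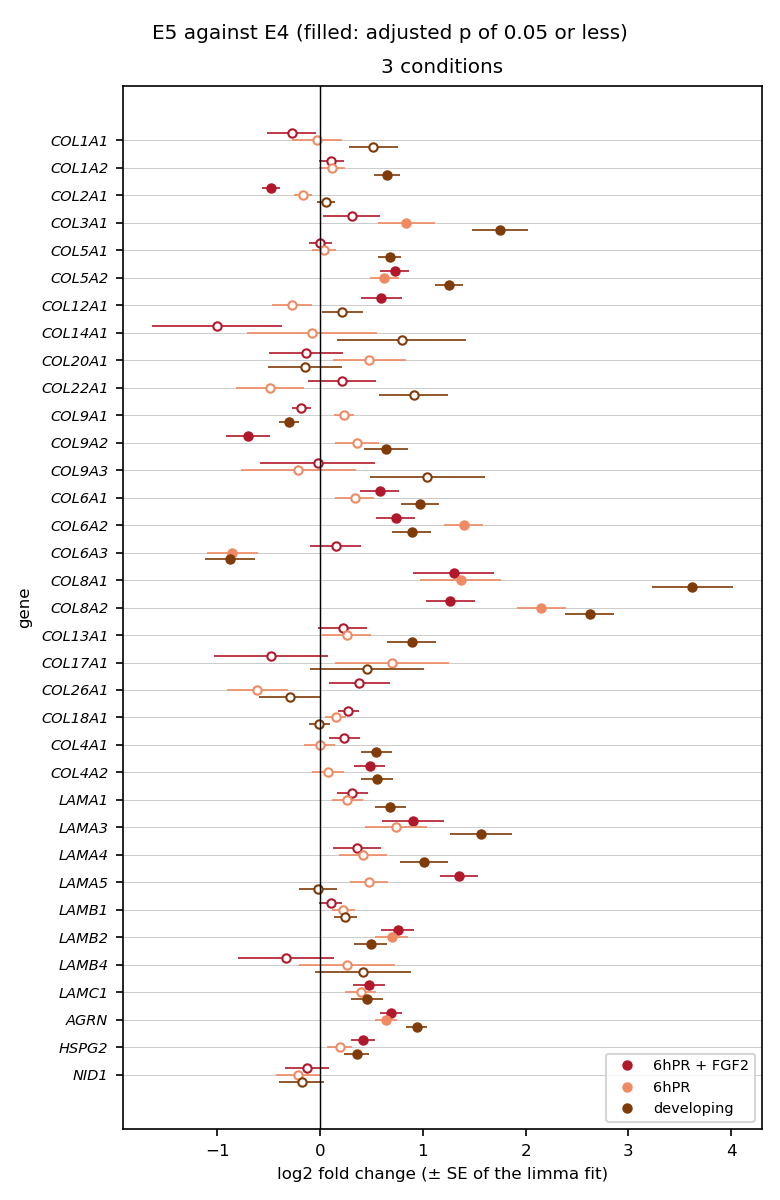
Points are log2 fold changes of E5 against E4 with bars of ± 1 SE from the limma fit, by gene and in 3 colours for 6hPR + FGF2, 6hPR and developing RPE; filled points have an adjusted p of 0.05 or less. *COL8A1* in developing RPE lies farthest right, at 3.62, and most filled points are to the right of 0.

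Collagen VIII showed the widest stage difference among the 38 genes. *COL8A1* (ENSGALG00000015253), 1 of the chains of the collagen VIII lattice, had 20630.2, 12136 and 24209 normalized counts in E5 developing RPE, against 1697, 1250.5 and 1530 in E4 developing RPE. The groups did not overlap, and the change was 3.62 ± 0.40 (adjusted p = 2.56e-05), a fold of 12.3. After surgery, *COL8A1* had 3546, 3806 and 4439 in E5 6hPR RPE, against 1871, 1302 and 1426 in E4 6hPR RPE. With FGF2 it had 4090.5, 4685 and 1298 in E5 RPE, against 1799.8, 1107 and 838 in E4 RPE. The 6hPR groups did not overlap (1.37 ± 0.40, adjusted p = 0.023), whereas E5 6hPR + FGF2 replicate 3 lay within the range of the E4 group (1.30 ± 0.40, adjusted p = 0.0224). The 6hPR call was lost, at adjusted p of 0.0571 to 0.0774, without replicate 2 or 3 of either stage, and the 6hPR + FGF2 call, at 0.0641 to 0.115, without E4 replicate 2 or 3 or E5 replicate 1 or 2, and in a fit of these groups only (0.0732).

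*COL8A2* (ENSGALG00000002298), which encodes the other collagen VIII chain, followed the same order of stages. It had 11842, 5576 and 7127 normalized counts in E5 developing RPE, against 1113, 1059.8 and 1700.2 in E4 developing RPE. In 6hPR RPE the values were 5008, 5238 and 4790.4 at E5, against 1213, 1318 and 891 at E4. With FGF2 they were 3508, 3813 and 3037 at E5, against 1697, 1382 and 1242 at E4. Within each condition every E5 library was above every E4 library. The changes were 2.62 ± 0.24 in developing, 2.15 ± 0.24 in 6hPR and 1.27 ± 0.24 in 6hPR + FGF2 RPE (adjusted p = 9.36e-06, 3.02e-05 and 0.00132, in that order).

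At E5 both treatments were accompanied by less *COL8A1*. In the E5 groups its values, given above, were 3546 to 4439 in 6hPR RPE and 1298 to 4685 in 6hPR + FGF2 RPE, against 12136 to 24209 in developing RPE. Every treated library was below every developing library. It fell by 2.22 (SE 0.40) in 6hPR and by 2.64 (SE 0.40) in 6hPR + FGF2 RPE on the log2 scale (adjusted p = 0.000984 and 0.000127), 4.66-fold and 6.25-fold lower. *COL8A2* fell in E5 6hPR + FGF2 RPE (-1.18 ± 0.24, adjusted p = 0.00154), and in E5 6hPR RPE the change was -0.63 ± 0.24 (adjusted p = 0.0754). At E4 neither chain was called, with *COL8A1* at 0.03 ± 0.40 in 6hPR and -0.32 ± 0.40 in 6hPR + FGF2 RPE.

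**Figure D3:**
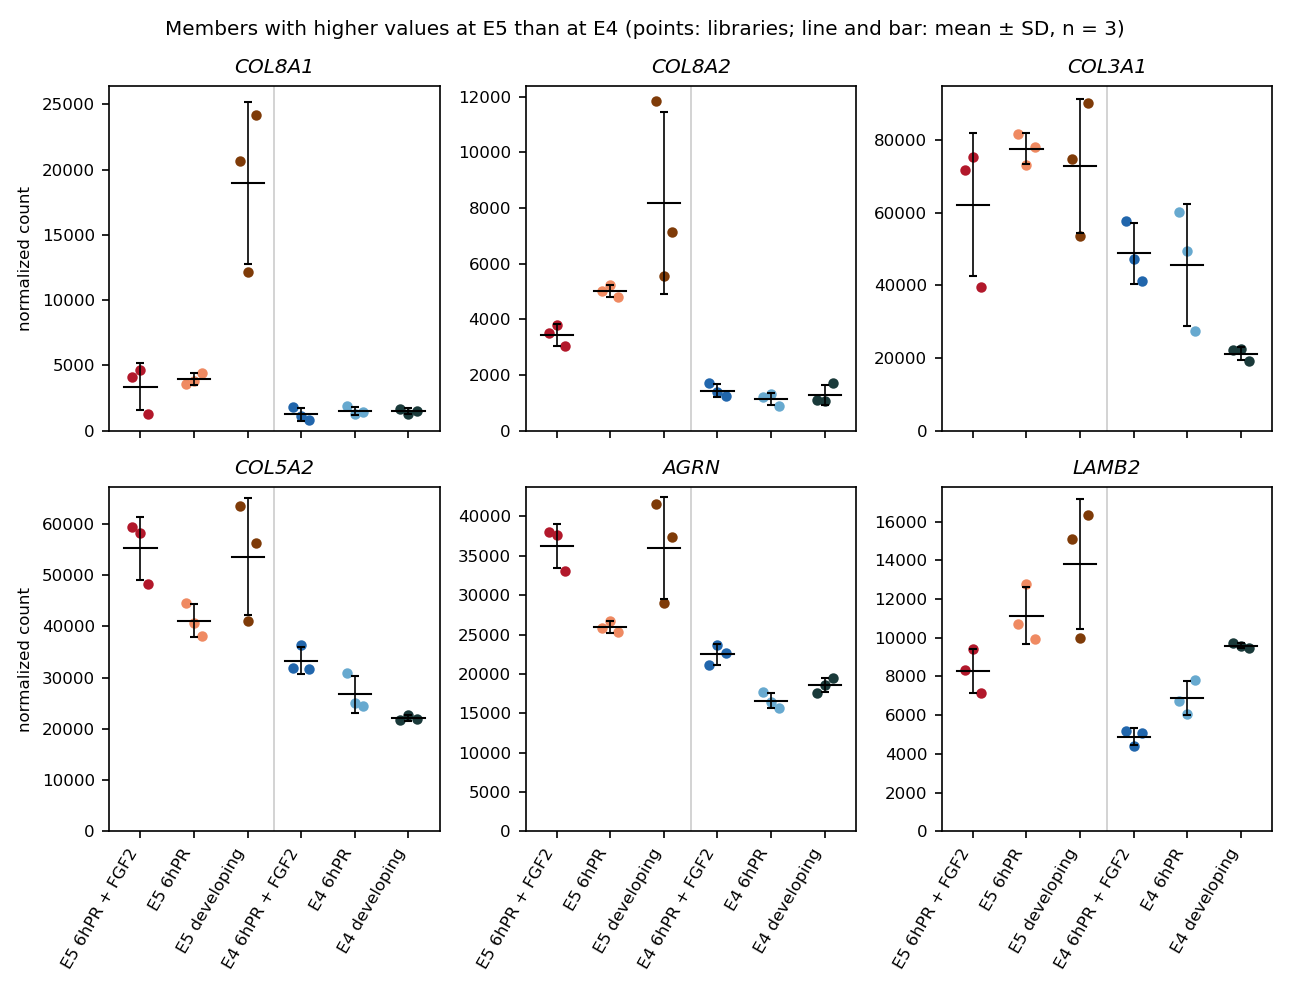
Normalized counts (linear axis starting at 0) of 6 genes in the 6 groups; points are libraries, lines and bars the mean ± SD of 3 libraries. In developing RPE the E5 points of *COL8A1* lie at 12136 or above and the E4 points at 1697 or below.

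Among the fibrillar collagens, 4 of 6 were higher at E5 in developing RPE (*COL1A2*, *COL3A1*, *COL5A1* and *COL5A2*), with a class median of 0.67. *COL3A1* (ENSGALG00000035584), whose product forms fibrils together with collagen I in distensible tissues, had 74832, 53664 and 90284 normalized counts in E5 developing RPE, against 22103, 22521 and 19055 in E4 developing RPE. The groups were well separated, and the change was 1.75 ± 0.28 (adjusted p = 0.000367). In 6hPR RPE it had 81813, 73068 and 78226 at E5, against 60148, 49528 and 27340.4 at E4. This difference (0.84 ± 0.28, adjusted p = 0.0429) was lost, at adjusted p of 0.0806 to 0.222, without E4 6hPR replicate 3 or any E5 6hPR library, and under quantile normalization, edgeR and a fit of these groups only (0.0564 to 0.0929). With FGF2 it had 71762, 75324 and 39552 at E5, against 57877, 47172 and 41342 at E4, and the groups overlapped because E5 replicate 3 was the lowest of all 6 libraries (0.31 ± 0.28, adjusted p = 0.44).

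*COL3A1* also differed between conditions at E4. All 3 E4 6hPR and all 3 E4 6hPR + FGF2 libraries were above the 3 E4 developing libraries. The changes were 1.03 ± 0.28 in 6hPR (adjusted p = 0.0208) and 1.19 ± 0.28 in 6hPR + FGF2 RPE (adjusted p = 0.00612). The call for 6hPR was lost, at adjusted p of 0.0532 to 0.104, when replicate 1 or 3 of E4 developing or replicate 1 or 2 of E4 6hPR RPE was left out. At E5 the changes were 0.12 ± 0.28 in 6hPR and -0.25 ± 0.28 in 6hPR + FGF2 RPE, neither called.

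Collagen I is a trimer of *COL1A1* and *COL1A2* chains, and its genes were not called alike. *COL1A2* (ENSGALG00000009641) had 49026, 38281 and 50234 normalized counts in E5 developing RPE, against 29419.6, 29592 and 27778 in E4 developing RPE, with no overlap (0.65 ± 0.13, adjusted p = 0.00163). *COL1A1* (ENSGALG00000041555) had 18934, 13564 and 25481 in E5 developing RPE, against 14877, 13888 and 10758 in E4 developing RPE, where the groups overlapped (0.52 ± 0.24, adjusted p = 0.143). A difference between the 2 genes was not tested. *COL1A2* had 47649, 49465 and 38295 in E5 6hPR + FGF2, 41961, 40718 and 47624 in E5 6hPR, 39201, 44350.5 and 41207 in E4 6hPR + FGF2 and 43643, 43309 and 33563 in E4 6hPR RPE. Both E4 treatments were thus above E4 developing RPE (0.52 ± 0.13 with FGF2, adjusted p = 0.00799; 0.46 ± 0.13 without, adjusted p = 0.0233), and the call for 6hPR was lost at adjusted p of 0.0538 to 0.0976 without any single library except E4 6hPR replicate 3. *COL1A1* had 13116, 16368 and 9151 in E5 6hPR + FGF2, 13994, 16848 and 22104 in E5 6hPR, 13311, 18051 and 14502 in E4 6hPR + FGF2 and 20159, 15847 and 17373 in E4 6hPR RPE, and was called in none of the 9 pairwise comparisons.

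Collagen V nucleates collagen I fibrils and limits their diameter. *COL5A2* (ENSGALG00000031112) was higher at E5 in all conditions: 41021 to 63452 normalized counts against 21658 to 22734 at E4 in developing RPE (1.25 ± 0.14, adjusted p = 2.73e-05), 38079.7 to 44569 against 24368 to 30831 in 6hPR RPE (0.63 ± 0.14, adjusted p = 0.00453), and 48169 to 59324 against 31744 to 36267 in 6hPR + FGF2 RPE (0.73 ± 0.14, adjusted p = 0.00145). None of these ranges overlapped. Under quantile normalization the 6hPR call was lost (adjusted p = 0.0728). In E4 6hPR + FGF2 RPE *COL5A2* was at 31744 to 36267, above the 21658 to 22734 in developing RPE (0.59 ± 0.14, adjusted p = 0.00674). The E4 6hPR libraries, at 24368 to 30831, lay between them. At E4 *COL5A2* was called neither for 6hPR against developing nor for 6hPR + FGF2 against 6hPR RPE. *COL5A1* was higher at E5 in developing RPE (0.68 ± 0.11, adjusted p = 0.000622) and fell in E5 6hPR + FGF2 RPE relative to developing RPE (-0.43 ± 0.11, adjusted p = 0.0101). At E4 *COL5A1* rose in 6hPR RPE (0.45 ± 0.11, adjusted p = 0.0169), a call lost at adjusted p of 0.0508 to 0.0848 when replicate 1 or 3 of E4 developing or replicate 1 of E4 6hPR RPE was left out.

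*COL2A1*, the fibrillar collagen of cartilage and of the embryonic vitreous, was the only one of its class called lower at E5 than at E4 in any condition. In 6hPR + FGF2 RPE it had 51131, 53376 and 56917 normalized counts at E5, against 72030.3, 75742 and 77295 at E4. The groups did not overlap, and *COL2A1* was lower at E5 (-0.48 ± 0.09, adjusted p = 0.00121). In developing RPE the difference was 0.06 ± 0.09 (adjusted p = 0.708). It fell in E5 6hPR + FGF2 RPE relative to E5 developing RPE (-0.29 ± 0.09, adjusted p = 0.0243), a call lost under quantile normalization (0.278), in a fit of these groups only (0.084), and with replicate 3 of E5 developing or replicate 1 or 2 of E5 6hPR + FGF2 RPE left out (0.0668 to 0.0974).

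The treatments were then compared with developing RPE, to ask which matrix genes responded to surgery and to surgery with FGF2 within 6 h. The same developing libraries serve both comparisons at a stage. At E5, 11 of the 38 genes were called in 6hPR + FGF2 RPE (5 higher, 6 lower; all genes 28.8%, with 15.1% higher and 13.7% lower; median -0.07) and 8 in 6hPR RPE (4 higher, 4 lower; all genes 19.0%, with 9.92% higher and 9.09% lower; median -0.0042). At E4, 15 were called in 6hPR + FGF2 RPE (11 higher, 4 lower; all genes 20.0%, with 9.82% higher and 10.2% lower; median 0.28) and 10 in 6hPR RPE, all higher (all genes 13.6%, with 5.68% higher and 7.9% lower; median 0.36). The E4 counts fell further with 1 library left out. In E4 6hPR RPE, 3 genes were called without any single E4 developing library or without E4 6hPR replicate 1. In E4 6hPR + FGF2 RPE, 9 were called without E4 developing replicate 2 or E4 6hPR + FGF2 replicate 1. The share of all genes called in such fits was not computed, so the fall cannot be set apart from one over all genes. At E5, without developing replicate 2, 15 genes were called in 6hPR + FGF2 and 11 in 6hPR RPE.

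**Figure D4:**
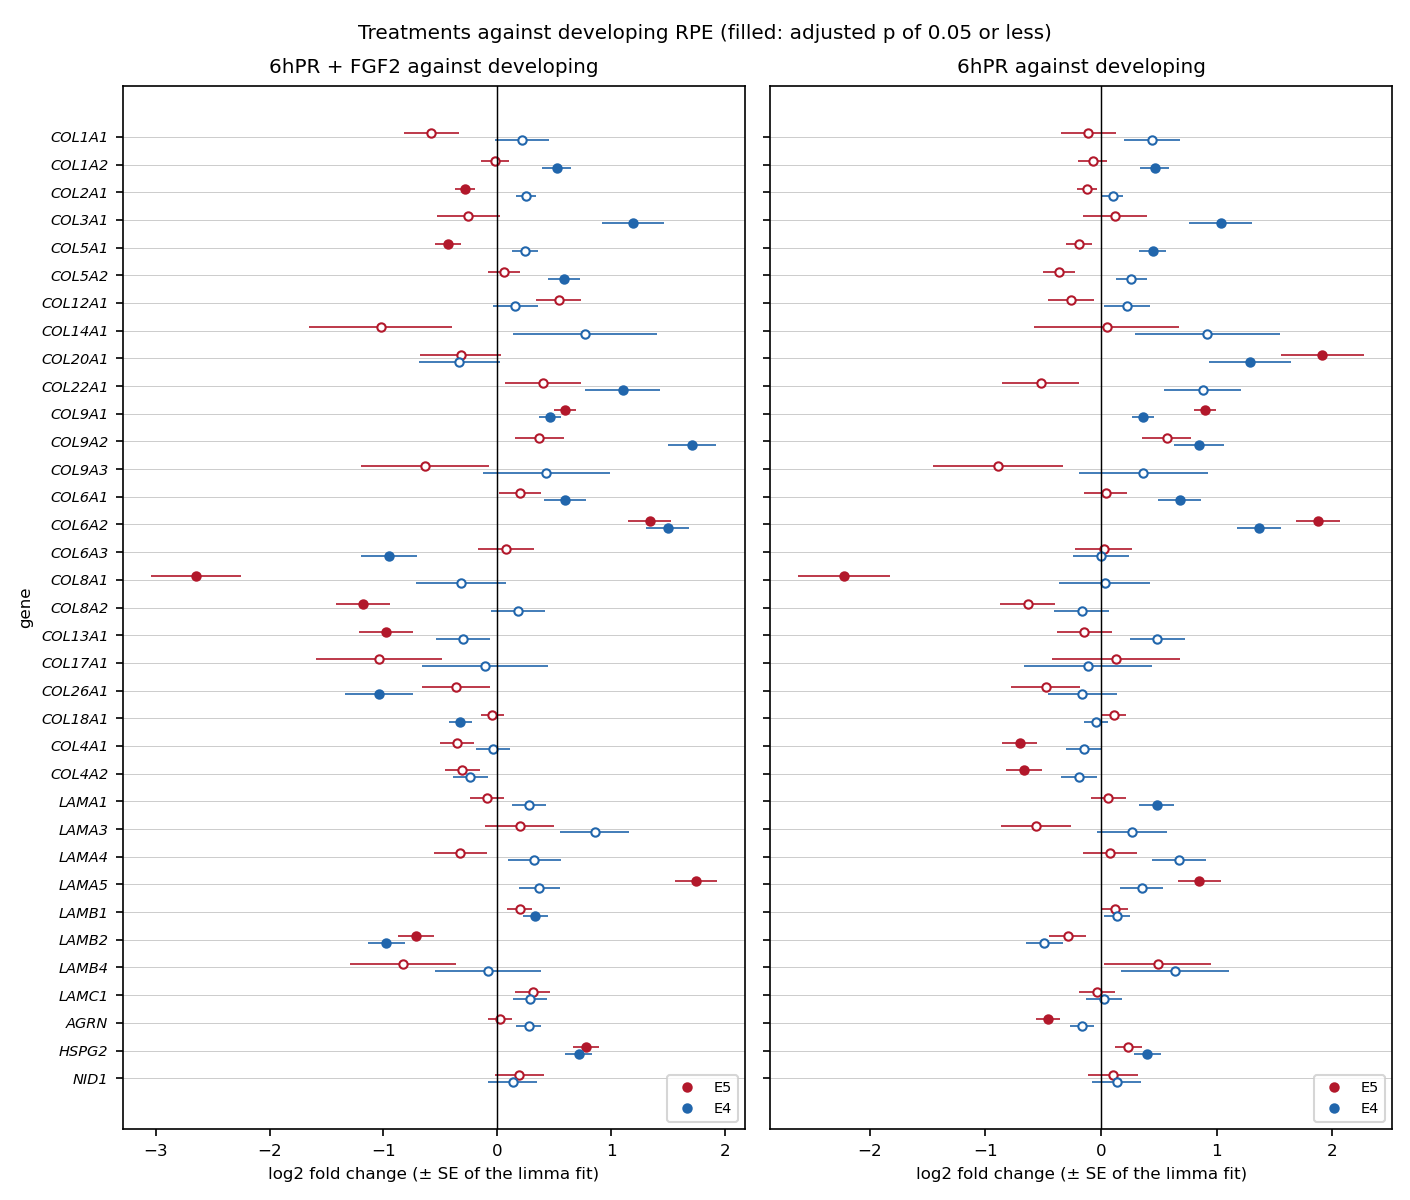
Points are log2 fold changes against developing RPE of the same stage with bars of ± 1 SE from the limma fit, for 6hPR + FGF2 (left panel) and 6hPR (right panel), in separate colours for E5 and E4; filled points have an adjusted p of 0.05 or less. *COL6A2* is filled at both stages in both panels, and *COL8A1* is filled at E5 only.

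*COL6A2* (ENSGALG00000039216), which encodes a chain of the collagen VI beaded filament, rose in both treatments at both stages. At E5 it had 2785, 2717 and 2255 normalized counts in 6hPR + FGF2 and 3391, 3449.5 and 4468 in 6hPR RPE, against 1191, 895 and 987 in developing RPE. At E4 it had 1790.4, 1389 and 1489.9 in 6hPR + FGF2 and 1966, 1108 and 1309 in 6hPR RPE, against 638, 511 and 507 in developing RPE. At each stage all treated libraries but none of the developing ones were above 1191 (E5) or 638 (E4). The changes at E5 were 1.34 ± 0.19 with FGF2 and 1.88 ± 0.19 without (adjusted p = 7.59e-05 and 6.03e-06). At E4 they were 1.49 ± 0.19 with FGF2 and 1.37 ± 0.19 without (adjusted p = 5.45e-05 and 0.000256), and all 4 calls held with every library left out. *COL6A2* was lower in 6hPR + FGF2 than in 6hPR RPE at E5 (-0.54 ± 0.19, adjusted p = 0.047), a call lost in 5 of 6 fits with 1 library left out (0.0741 to 0.189). Between stages it was higher at E5 in 6hPR + FGF2 (0.73 ± 0.19, adjusted p = 0.00934), 6hPR (1.40 ± 0.19, adjusted p = 0.000136) and developing RPE (0.89 ± 0.19, adjusted p = 0.00316).

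The other collagen VI chains were not called alike with *COL6A2*. *COL6A1* rose at E4 in 6hPR + FGF2 (0.59 ± 0.19, adjusted p = 0.0345) and 6hPR RPE (0.68 ± 0.19, adjusted p = 0.0241); with 1 library left out the calls were lost in 5 and 4 of 6 fits, at adjusted p of up to 0.147 and 0.122. *COL6A3* (ENSGALG00000003923) had 1777, 2717 and 2379 normalized counts in E4 6hPR + FGF2 and 4947, 3230.5 and 5197 in E4 6hPR RPE, against 4567, 5216 and 3486 in E4 developing RPE. The FGF2-treated libraries were below all libraries of both other E4 groups. *COL6A3* fell by 0.95 relative to developing (adjusted p = 0.0119) and by 0.95 relative to 6hPR RPE on the log2 scale (adjusted p = 0.0265). At E5 it had 3001, 3026 and 1734 in 6hPR + FGF2, 2629.8, 2348 and 2282 in 6hPR and 2607, 1816 and 2821 in developing RPE. It was therefore lower at E5 than at E4 in developing RPE (-0.88 ± 0.25, adjusted p = 0.0175) and in 6hPR RPE (-0.85 ± 0.25, adjusted p = 0.0228), the opposite direction to *COL6A1* and *COL6A2* in developing RPE. Each of these *COL6A3* calls was lost in 2 to 4 of the 6 fits with 1 library left out, at adjusted p of 0.0502 to 0.123. The E4 fall relative to 6hPR RPE was also lost in a fit of these groups only (0.0618).

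As a description, the log2 ratio of *COL6A3* to *COL6A1* was -0.16 ± 0.15 (SD) in E5 developing RPE, against 1.69 ± 0.23 in E4 developing RPE. The log2 ratio of *COL6A2* to *COL6A1* at E5 was -0.25 ± 0.20 in 6hPR + FGF2 and 0.45 ± 0.31 in 6hPR RPE, against -1.39 ± 0.22 in developing RPE. Since counts are not per length, only differences of such a ratio between groups can be read. The collagen IV pair showed no comparable shift, with log2 *COL4A1* to *COL4A2* ratios between 0.40 and 0.74 over the 18 libraries.

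Collagen IX is a short collagen on the surface of collagen II fibrils, and its *COL9A1* chain (ENSGALG00000015970) rose in both treatments at both stages. It had 58428, 53748 and 61857 normalized counts in E5 6hPR + FGF2 and 66626, 72212 and 76993 in E5 6hPR RPE, against 35632, 37029 and 43052 in E5 developing RPE. At E4 it had 62926, 64197 and 70032 in 6hPR + FGF2 and 57700.3, 66184 and 59963 in 6hPR RPE, against 45396, 44286 and 53334 in developing RPE. All treated libraries were above all developing libraries of their stage. It rose by 0.59 ± 0.10 and 0.90 ± 0.10 at E5 (adjusted p = 0.000282 with FGF2 and 1.18e-05 without) and by 0.47 ± 0.10 and 0.36 ± 0.10 at E4 (adjusted p = 0.00282 with FGF2 and 0.0204 without). Only the last of these was lost with a library left out (replicate 1 or 2 of E4 developing or replicate 2 of E4 6hPR RPE, at adjusted p of 0.0811 to 0.0855). In developing RPE *COL9A1* was lower at E5 than at E4 (-0.31 ± 0.10, adjusted p = 0.0337), a call lost in 4 of 6 such fits (0.0523 to 0.155) and in a fit of these groups only (0.13). At E5 it was lower in 6hPR + FGF2 than in 6hPR RPE (-0.31 ± 0.10, adjusted p = 0.028), a call lost under quantile normalization (0.414) and in 4 of 6 fits with 1 library left out (0.0678 to 0.114).

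*COL9A2* (ENSGALG00000027526) gave the largest rise with FGF2 at E4 among the called genes averaging 50 or more counts. It had 24359.9, 21202 and 20928 normalized counts in E4 6hPR + FGF2 and 8941, 16114 and 12518 in E4 6hPR RPE, against 6819.6, 5556 and 8136 in E4 developing RPE. The 3 groups did not overlap, and the changes against developing RPE were 1.71 ± 0.21 with FGF2 (adjusted p = 5.02e-05, 3.27-fold) and 0.85 ± 0.21 without (adjusted p = 0.0155). The 6 neural retina progenitor markers summed to 16955, 15841 and 14849 in E4 6hPR + FGF2 and 4758, 12650 and 5119 in E4 6hPR RPE, against 917, 891 and 1067 in E4 developing RPE. The markers and *COL9A2* had the same order of groups at E4, and within E4 6hPR RPE both were highest in replicate 2. Within E5 developing RPE the order of replicates was the opposite. Marker sums there were 2423, 15581 and 575 in replicates 1, 2 and 3, and *COL9A2* was 9319, 8761 and 14248. The part of these cells in the *COL9A2* result was not tested. At E5 *COL9A2* had 12717, 13596 and 14446 in 6hPR + FGF2 and 12581, 16558 and 18199.6 in 6hPR RPE, against 9319, 8761 and 14248 in developing RPE, where the ranges overlapped and neither change was called (0.37 ± 0.21 and 0.57 ± 0.21). Between the stages, *COL9A2* was the only one of the 38 called in both directions: lower at E5 in 6hPR + FGF2 RPE (-0.70 ± 0.21, adjusted p = 0.022) and higher at E5 in developing RPE (0.64 ± 0.21, adjusted p = 0.0436). With 1 library left out these stage calls were lost in 3 and 4 of 6 fits, at adjusted p of 0.0579 to 0.0758 and 0.0503 to 0.174, and the second also in a fit of these groups only (0.0908). *COL9A2* was also higher in 6hPR + FGF2 than in 6hPR RPE at E4 (0.86 ± 0.21, adjusted p = 0.0216), a call lost in 3 of 6 such fits (0.0567 to 0.118) and in a fit of these groups only (0.061). The E4 rise in 6hPR RPE was lost in 2 of 6 (0.0726 to 0.0733). *COL9A3*, the third chain, varied from 812 to 2559 within E5 6hPR + FGF2 RPE and was called nowhere.

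*COL20A1* (ENSGALG00000005797), a fibril-associated collagen first described in chick, was highest in 6hPR RPE at both stages. It had 30.9, 50 and 36.6 normalized counts in E5 6hPR + FGF2, 172, 205 and 173 in E5 6hPR and 73.2, 48 and 31.8 in E5 developing RPE. At E4 the values were 32.5, 47.9 and 48.5 in 6hPR + FGF2, 179.7, 85.8 and 146 in 6hPR and 74.2, 50.8 and 40.3 in developing RPE. The 6hPR libraries were above both other groups at each stage. Against developing RPE the rise was 1.91 ± 0.36 at E5 (adjusted p = 0.00139) and 1.29 ± 0.36 at E4 (adjusted p = 0.0253). With FGF2 it was -2.24 ± 0.36 relative to 6hPR RPE at E5 and -1.62 ± 0.36 at E4 (adjusted p = 0.000426 and 0.011). The E5 calls held throughout. The E4 rise was lost when replicate 2 or 3 of E4 developing or replicate 1 or 3 of E4 6hPR RPE was left out (adjusted p of 0.0726 to 0.115), and the E4 fall with FGF2 without E4 6hPR replicate 1 or E4 6hPR + FGF2 replicate 1 (0.0553 to 0.0647) and in a fit of these groups only (0.0538).

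The direct comparison of 6hPR + FGF2 with 6hPR RPE asked what FGF2 added to surgery. At E5, 10 of the 38 genes were called (5 higher, 5 lower; all genes 26.2%, with 13.9% higher and 12.3% lower). At E4, 4 were called (2 higher, 2 lower; all genes 8.27%, with 4.99% higher and 3.28% lower). Under quantile normalization the E4 calls were 1 higher and 2 lower (all genes 846 higher and 621 lower). The E5 count was 5 without E5 6hPR replicate 2 or E5 6hPR + FGF2 replicate 1 and 6 without E5 6hPR replicate 3 or E5 6hPR + FGF2 replicate 2, and 20 in a fit of these groups only. The E4 count was 1 without E4 6hPR replicate 1 or 3, without E4 6hPR + FGF2 replicate 1, or in a fit of these groups only, and 7 with DESeq2. Shares of all genes in the fits of these groups only and with DESeq2 are not given here. The counts of 20, 1 and 7 therefore cannot be read as results about the 38 genes. At E5, *AGRN*, *COL12A1*, *COL20A1*, *HSPG2* and *LAMA5* kept their calls in every setting, and at E4 none of the 4 did.

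*LAMA5* (ENSGALG00000005321), the laminin alpha chain of many mature epithelial and vascular basement membranes, had the largest rise with FGF2 at E5 among the called genes averaging 50 or more counts. It had 38914, 35314 and 30297 normalized counts in E5 6hPR + FGF2, 19871, 18274 and 18017 in E5 6hPR and 15250.2, 8667 and 8422 in E5 developing RPE. The 3 groups were fully separated, in that order. The changes were 1.74 ± 0.18 for 6hPR + FGF2 against developing (adjusted p = 4.69e-06), 0.89 ± 0.18 for 6hPR + FGF2 against 6hPR (adjusted p = 0.00275) and 0.85 ± 0.18 for 6hPR against developing RPE (adjusted p = 0.00404, 0.0591 in a fit of these groups only). At E4 *LAMA5* had 12646, 13737 and 14501 in 6hPR + FGF2, 16176, 11461 and 13078 in 6hPR and 9425, 11492 and 10773 in developing RPE, and neither treatment was called (0.37 ± 0.18 and 0.35 ± 0.18). In 6hPR + FGF2 RPE it was 2.55-fold higher at E5 than at E4 (1.35 ± 0.18, adjusted p = 0.000139), and in developing RPE the stage difference was -0.02 ± 0.18.

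The other laminin alpha chains differed by stage in developing RPE. *LAMA3*, the alpha chain of the laminin that anchors stratified epithelia, had 236, 169 and 165 normalized counts in E5, against 68.4, 66.5 and 54.9 in E4 developing RPE (1.57 ± 0.30, adjusted p = 0.00164). With FGF2 the difference was 0.91 ± 0.30 (adjusted p = 0.0345), lost in 4 of 6 fits with 1 library left out (0.0702 to 0.147) and under quantile normalization (0.061). *LAMA1*, the alpha chain of the earliest embryonic basement membranes, had 23659 to 32049.9 in E5, against 15916 to 18591 in E4 developing RPE (0.68 ± 0.15, adjusted p = 0.00412). *LAMA4*, the alpha chain of vascular and mesenchymal laminins, had 1902 to 2482 in E5, against 1022 to 1148 in E4 developing RPE (1.01 ± 0.23, adjusted p = 0.00535). Ranges of all 3 genes did not overlap between the stages.

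*LAMB2* encodes a beta chain that replaces *LAMB1* in the laminins of several mature basement membranes, including those of the eye. It was lower in 6hPR + FGF2 than in developing RPE at both stages. It had 8333, 9415 and 7151 normalized counts in E5 6hPR + FGF2, against 15075, 9994 and 16341 in E5 developing RPE, and 5188, 4400.1 and 5095 in E4 6hPR + FGF2, against 9705, 9599 and 9471 in E4 developing RPE. At both stages the highest treated library was below the lowest developing one. The changes were -0.71 ± 0.16 at E5 (adjusted p = 0.0034) and -0.97 ± 0.16 at E4 (adjusted p = 0.000475). In 6hPR RPE *LAMB2* had 9931 to 12791 at E5 and 6058 to 7799 at E4. At neither stage was it called for 6hPR against developing or for 6hPR + FGF2 against 6hPR RPE. Between stages it was higher at E5 in 6hPR + FGF2 (0.76 ± 0.16, adjusted p = 0.00287), 6hPR (0.70 ± 0.16, adjusted p = 0.0059) and developing RPE (0.49 ± 0.16, adjusted p = 0.0371). The developing call was lost without any single library except E5 developing replicate 2 (adjusted p of 0.0831 to 0.134), and in a fit of these groups only and with the replicate block (0.0523 to 0.113).

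*LAMB1* (ENSGALG00000007905) and *LAMC1* (ENSGALG00000004620), the beta and gamma chains shared by most embryonic laminins, had few calls. *LAMB1* had 48457, 48533 and 47164 normalized counts in E5 6hPR + FGF2, 45895, 47414 and 44116 in E5 6hPR and 43421, 35851 and 47528 in E5 developing RPE. At E4 it had 41403, 48086 and 44913 in 6hPR + FGF2, 40258, 45436 and 32795 in 6hPR and 34229, 34959 and 37293 in developing RPE. Its 1 call, a rise in E4 6hPR + FGF2 relative to developing RPE (0.33 ± 0.11, adjusted p = 0.0467), was lost with any of the 6 libraries left out (0.0508 to 0.155). It was also lost with edgeR, TMM scaling and the replicate block (0.0519 to 0.0708). *LAMC1* had 34956, 34476 and 29913 in E5 6hPR + FGF2, 29397, 26208 and 22942 in E5 6hPR and 35051, 21832 and 24779 in E5 developing RPE. At E4 it had 22471, 25419.6 and 23397 in 6hPR + FGF2, 21897, 20619 and 17192 in 6hPR and 16952, 19979.5 and 21742 in developing RPE. *LAMC1* was higher at E5 in 6hPR + FGF2 (0.48 ± 0.15, adjusted p = 0.029) and developing RPE (0.45 ± 0.15, adjusted p = 0.0449). These calls were lost in 4 and 3 of 6 fits with 1 library left out, at adjusted p of up to 0.0951 and 0.208. The developing call was also lost under quantile normalization and in a fit of these groups only (0.0834 to 0.151).

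*LAMB3*, the beta chain that partners *LAMA3*, was not detected in developing RPE at either stage (0 in all 6 libraries). It had 23.4, 31.7 and 29.5 normalized counts in E5 6hPR + FGF2, 15.7, 0 and 8.56 in E5 6hPR, 19.9, 26.8 and 29.1 in E4 6hPR + FGF2 and 13, 0 and 11.6 in E4 6hPR RPE. Taking 3 reads in each developing library as the limit that a count of 0 allows, it was at least 8.64-fold higher in E5 6hPR + FGF2 RPE and at least 9.51-fold higher in E4 6hPR + FGF2 RPE than in developing RPE (adjusted p = 0.0017 and 0.00308). In 6hPR RPE 1 library of each stage was at 0 and the gene was not called. With *LAMB3* at its bound the medians over the 38 genes were unchanged, at -0.07 at E5 and 0.28 at E4. *LAMB4*, whose gene neighbours *LAMB1* with no other between them in the RefSeq annotation of GRCg7b, had 211, 259.6 and 237 in E5 6hPR + FGF2, against 638, 642 and 494 in E5 6hPR RPE (-1.32 ± 0.47, adjusted p = 0.0478), a call lost with any of the 6 libraries left out (0.0797 to 0.127).

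Collagen IV, the network of all basement membranes, fell in 6hPR RPE at E5. *COL4A1* (ENSGALG00000036798) had 30149.9, 28572 and 23264 normalized counts in E5 6hPR + FGF2 and 23817, 20392 and 19875 in E5 6hPR RPE, against 38491, 27799.8 and 38850.4 in E5 developing RPE. *COL4A2* (ENSGALG00000016843), its obligate partner and head-to-head neighbour, had 21766, 21271 and 16679.6 in E5 6hPR + FGF2 and 17217, 15249 and 14033 in E5 6hPR RPE, against 29244, 19644 and 25529 in E5 developing RPE. The 6hPR libraries of both genes were below all developing libraries, whereas the 6hPR + FGF2 libraries overlapped them. In 6hPR RPE *COL4A1* fell by 0.70 and *COL4A2* by 0.66 on the log2 scale (adjusted p = 0.00376 and 0.00638), and with FGF2 the changes were -0.35 ± 0.15 and -0.31 ± 0.15 (adjusted p = 0.0939 and 0.151). The direct comparison of 6hPR + FGF2 with 6hPR RPE was not called (0.35 ± 0.15 and 0.36 ± 0.15).

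At E4 the collagen IV genes had no treatment call. *COL4A1* had 21537, 23781 and 24022 normalized counts in E4 6hPR + FGF2, 27099.5, 19309 and 18658 in E4 6hPR and 22469, 24032 and 24711 in E4 developing RPE. *COL4A2* had 12923, 15188 and 14470.4 in E4 6hPR + FGF2, 18014, 13735 and 12629.7 in E4 6hPR and 15386, 17690.2 and 17072 in E4 developing RPE. Both were higher at E5 than at E4 in developing RPE (*COL4A1* 0.55 ± 0.15, adjusted p = 0.0157; *COL4A2* 0.55 ± 0.15, adjusted p = 0.0169). The calls were lost without E4 developing replicate 1 or E5 developing replicate 1 (both genes) or E5 developing replicate 3 (*COL4A1*), at adjusted p of 0.0541 to 0.0819. The *COL4A2* call was also lost in a fit of these groups only (0.0509).

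Both proteoglycan genes were higher in 6hPR + FGF2 than in 6hPR RPE at E5. *HSPG2*, which encodes perlecan, had 60538, 63125 and 60874 normalized counts in E5 6hPR + FGF2, 39895, 44327 and 42546 in E5 6hPR and 38677, 28028 and 42461 in E5 developing RPE. At E4 it had 45681, 48132 and 44281 in 6hPR + FGF2, 37909.8, 40362 and 33164 in 6hPR and 26775, 29367 and 27981 in developing RPE. The 6hPR + FGF2 libraries were the highest at each stage. Against developing RPE *HSPG2* rose by 0.78 ± 0.12 at E5 (adjusted p = 0.000142) and by 0.72 ± 0.12 at E4 (adjusted p = 0.000493), and against 6hPR RPE by 0.54 ± 0.12 at E5 (adjusted p = 0.00382), with 0.31 ± 0.12 at E4 (adjusted p = 0.124). Its calls between stages in developing RPE (0.35 ± 0.12, adjusted p = 0.0423) and for 6hPR against developing RPE at E4 (0.40 ± 0.12, adjusted p = 0.0337) were each lost in 5 of 6 fits with 1 library left out (0.0587 to 0.159). The stage call was also lost under quantile normalization, in a fit of these groups only and with the replicate block (0.0655 to 0.183). The E4 6hPR call was also lost with the replicate block (0.0554).

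*AGRN* (ENSGALG00000039193), which encodes agrin, differed between the stages in every condition. It had 38067, 37660.3 and 33026 normalized counts in E5 6hPR + FGF2, 25784, 26717 and 25259 in E5 6hPR and 41626, 28976 and 37379 in E5 developing RPE. At E4 it had 21074, 23693 and 22681 in 6hPR + FGF2, 17672, 16432 and 15714 in 6hPR and 17627, 18614 and 19501 in developing RPE. Every E5 library was above every E4 library. The stage differences were 0.69 ± 0.11 in 6hPR + FGF2, 0.64 ± 0.11 in 6hPR and 0.94 ± 0.11 in developing RPE (adjusted p = 0.000341, 0.000602 and 3.24e-05, in that order). In E5 6hPR RPE *AGRN* fell relative to developing RPE (-0.46 ± 0.11, adjusted p = 0.00647, 0.0942 in a fit of these groups only). With FGF2 it was higher than in 6hPR RPE at E5 (0.48 ± 0.11, adjusted p = 0.00417) and at E4 (0.44 ± 0.11, adjusted p = 0.0191). The E4 call was lost under quantile normalization (0.0752) and without E4 6hPR replicate 3 or E4 6hPR + FGF2 replicate 2 (0.0687 to 0.0793). *NID1*, which links laminin to collagen IV, ranged from 4562 to 8966 in E5 developing RPE and was called in no comparison.

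**Figure D5:**
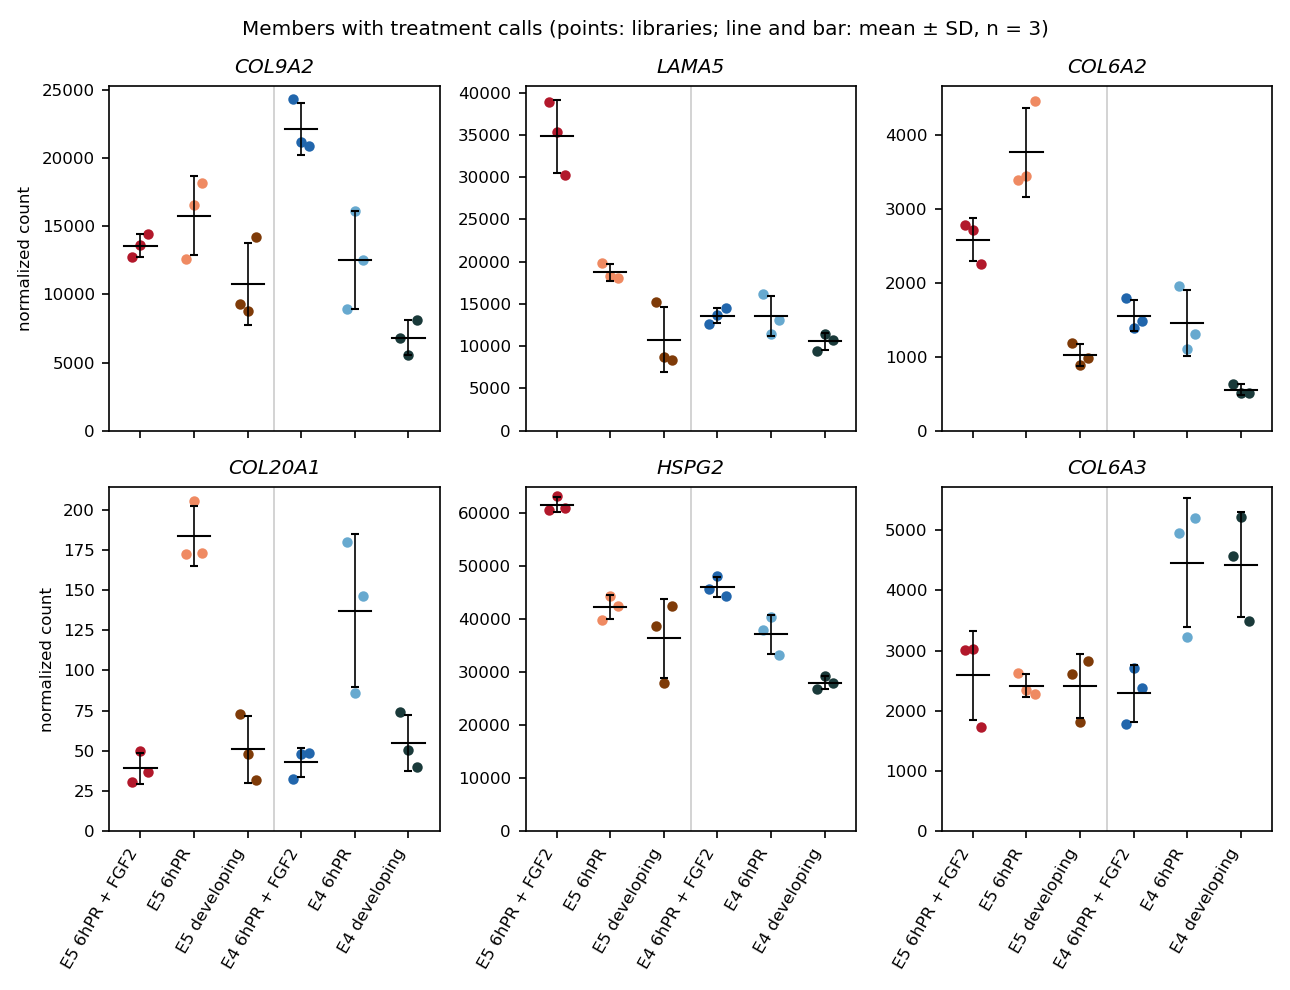
Normalized counts (linear axis starting at 0) of 6 genes in the 6 groups; points are libraries, lines and bars the mean ± SD of 3 libraries. *LAMA5* is highest in the 3 E5 6hPR + FGF2 libraries (30297 to 38914), and *COL20A1* in 6hPR RPE of both stages (85.8 or more).

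The remaining called genes were few. *COL12A1*, a fibril-associated collagen of dense connective tissue, had 15519, 16093 and 12373 normalized counts in E5 6hPR + FGF2, against 8991, 7388 and 8815 in E5 6hPR RPE (0.80 ± 0.20, adjusted p = 0.00824). *COL13A1*, a transmembrane collagen of cell adhesion sites, had 256, 269 and 255 in E5 6hPR + FGF2, 515, 479 and 401 in E5 6hPR and 586, 316 and 722 in E5 developing RPE. It fell with FGF2 against 6hPR (-0.83 ± 0.24, adjusted p = 0.019) and against developing RPE (-0.97 ± 0.24, adjusted p = 0.00602); the first call was lost in 4 of 6 fits with 1 library left out (0.0502 to 0.0616), and the second in a fit of these groups only (0.0651). In E4 6hPR + FGF2 against developing RPE, *COL22A1*, a collagen of tissue junctions, rose (1.10 ± 0.33, adjusted p = 0.0281), and *COL26A1* (-1.04 ± 0.30, adjusted p = 0.0219) and *COL18A1*, the source of endostatin (-0.32 ± 0.10, adjusted p = 0.037), fell. These 3 calls were lost in 4, 3 and 4 of 6 fits with 1 library left out, at adjusted p of 0.0608 to 0.169. The *COL22A1* call was also lost under quantile normalization (0.0621), and the *COL18A1* call there and with the replicate block (0.0574 to 0.0696). *COL22A1* averaged 123.3 in E4 6hPR + FGF2, 114.7 in E4 6hPR and 56.7 in E4 developing RPE. None of the 3 genes was called for 6hPR + FGF2 against 6hPR RPE. Called between stages and not given above were *COL6A1* (0.58 ± 0.19 in 6hPR + FGF2 and 0.97 ± 0.19 in developing RPE, adjusted p = 0.0293 and 0.00154), *COL12A1* (0.60 ± 0.20 in 6hPR + FGF2 RPE, adjusted p = 0.0327), *COL4A2* (0.48 ± 0.15 in 6hPR + FGF2 RPE, adjusted p = 0.0283), *HSPG2* (0.42 ± 0.12 in 6hPR + FGF2 RPE, adjusted p = 0.0151) and *COL13A1* (0.89 ± 0.24 in developing RPE, adjusted p = 0.0135). Called between treatments were *LAMA1* (0.48 ± 0.15 in E4 6hPR against developing RPE, adjusted p = 0.0447) and *COL5A2* (0.42 ± 0.14 in E5 6hPR + FGF2 against 6hPR RPE, adjusted p = 0.0345). Except for *COL6A1* in developing RPE, each of these was lost in 1 to 5 of 6 fits with 1 library left out, at adjusted p of 0.0524 to 0.173. The *COL12A1* and *COL4A2* calls were also lost under quantile normalization (0.054 and 0.0536), and the *COL13A1* call in a fit of these groups only (0.0947). The *LAMA1* call was also lost under TMM scaling and with the replicate block (0.0501 to 0.0698). *COL1A1*, *COL9A3*, *COL14A1*, *COL17A1*, *COL25A1*, *COL28A1* and *NID1* were called in none of the 9 pairwise comparisons; *COL14A1* and *COL17A1* had wide spreads, for example 1225 to 5667 and 113 to 644 normalized counts within E4 6hPR + FGF2 and E4 6hPR RPE.

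Whether a response differed between the stages was tested as the E5 response minus the E4 response. For 6hPR + FGF2 against developing RPE, 7 of the 38 genes were called (1 higher, 6 lower; all genes 5.56%, with 3.14% higher and 2.42% lower). *LAMA5* responded more at E5, by 1.37 ± 0.26 (adjusted p = 0.0082), and this call held with each library left out. *COL8A1* (-2.32 ± 0.56, adjusted p = 0.0257), *COL3A1* (-1.44 ± 0.39, adjusted p = 0.0425), *COL8A2* (-1.36 ± 0.34, adjusted p = 0.0294), *COL9A2* (-1.34 ± 0.30, adjusted p = 0.0192), *COL5A1* (-0.67 ± 0.16, adjusted p = 0.0255) and *COL2A1* (-0.54 ± 0.13, adjusted p = 0.0225) responded less, or fell more, at E5. Each of these 6 was lost in 2 to 9 of the 12 fits with 1 library left out (adjusted p of 0.0507 to 0.101), and the count was 1 without E4 developing replicate 2, 2 without E5 6hPR + FGF2 replicate 1 and 4 when replicate 1 or 3 of E4 developing or replicate 1 or 2 of E4 6hPR + FGF2 RPE was left out. In a fit of these groups only, *COL8A1* (0.0663) and *COL8A2* (0.0626) lost their calls, as did *COL2A1* under quantile normalization (0.0884).

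For 6hPR against developing RPE, 3 genes were called (1 higher, 2 lower; all genes 2.99%, with 1.77% higher and 1.21% lower): *COL8A1* (-2.25 ± 0.56, adjusted p = 0.042), *COL5A1* (-0.64 ± 0.16, adjusted p = 0.0458) and *COL9A1* (0.54 ± 0.14, adjusted p = 0.0466). These were lost in 9 or 10 of 12 fits with 1 library left out (0.0526 to 0.123), with 0 genes called without any E4 developing library, E4 6hPR replicate 1 or 3, or E5 6hPR replicate 2 or 3, 1 without E5 developing replicate 1 or 3 or E5 6hPR replicate 1, and 6 without E5 developing replicate 2. Under quantile normalization the calls were 0 higher and 2 lower (all genes 303 higher and 210 lower). The *COL5A1* call was lost in a fit of these groups only and with the replicate block (0.0682 to 0.0837). The *COL9A1* call was lost under quantile normalization and in a fit of these groups only (0.0803 to 0.101). For 6hPR + FGF2 against 6hPR RPE, limma called 0 of the 38 genes (all genes 2.54%, with 1.63% higher and 0.913% lower), with 9 at an unadjusted p under 0.05; edgeR called 0 and DESeq2 5. Without E4 6hPR replicate 2 the limma count was 6, and without E5 6hPR replicate 1 it was 1.

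Genes that build or bind these proteins were counted from lists. Of 29 genes for collagen synthesis and crosslinking tested, 11 were higher and 1 was lower at E5 in developing RPE (median 0.19), where 10.8% of all genes were higher and 11.1% lower. The largest were *ADAMTS2*, which removes the amino-terminal propeptide of procollagen (2131 ± 1112 normalized counts at E5, against 330.6 ± 20.7 at E4; 2.57 ± 0.27, adjusted p = 1.96e-05), and *LOX*, the crosslinking lysyl oxidase (1746 ± 739 against 299 ± 99.1; 2.51 ± 0.35, adjusted p = 0.000173). Of 20 other basement membrane proteins, 6 were higher and 2 lower, among them *EFEMP1*, a fibulin of Bruch's membrane (17713 ± 4059 at E5, against 3811 ± 306 at E4; 2.19 ± 0.21, adjusted p = 1.49e-05). Of 12 laminin and collagen receptors, 6 were higher and 2 lower, among them the laminin-binding integrin *ITGA7* (862 ± 402 at E5, against 211 ± 79.4 at E4; 1.98 ± 0.32, adjusted p = 0.000458).

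Members of the same lists were called in the FGF2 comparisons. In E5 6hPR + FGF2 against 6hPR RPE, 6 of the 12 receptors were higher and none of the 12 was lower (all genes 13.9% higher and 12.3% lower), and *ITGA2*, a collagen-binding integrin, had 3084 ± 152 normalized counts in 6hPR + FGF2, against 667 ± 170 in 6hPR RPE (2.24 ± 0.21, adjusted p = 5.82e-06). *PCOLCE2*, an enhancer of procollagen processing, rose in 6hPR + FGF2 relative to developing RPE by 2.07 ± 0.29 at E5 and 2.24 ± 0.29 at E4 (adjusted p = 6.24e-05 and 6.05e-05). *TNC*, which encodes tenascin C, rose by 3.00 ± 0.22 at E5 and 2.39 ± 0.22 at E4 in the same comparison (adjusted p = 2.01e-07 and 4.12e-06). Without FGF2, *TNC* also rose in E4 6hPR against developing RPE (1.32 ± 0.22, adjusted p = 0.00113). In 6hPR + FGF2 against 6hPR RPE it rose by 1.84 ± 0.22 at E5 and 1.06 ± 0.22 at E4 (adjusted p = 4.92e-05 and 0.00847). The collagen receptor *DDR2* fell relative to developing RPE in E5 6hPR + FGF2 (-1.74 ± 0.18, adjusted p = 2.93e-06), and also without FGF2 in E5 6hPR (-1.44 ± 0.18, adjusted p = 3.67e-05) and E4 6hPR RPE (-1.03 ± 0.18, adjusted p = 0.00113).

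Markers of other cell types moved with some of these differences. The counts of called markers are to be read against the share of all genes called. This share was 22.0% in developing, 19.7% in 6hPR and 29.5% in 6hPR + FGF2 RPE for E5 against E4. Against developing RPE it was 28.8% for E5 6hPR + FGF2, 19.0% for E5 6hPR, 20.0% for E4 6hPR + FGF2 and 13.6% for E4 6hPR RPE. Endothelial markers summed to 28587 to 39390 in E5 developing RPE, against 18872 to 20838 in E4 developing RPE. Of the 7 genes, 5 were higher and none lower, and *COL4A1*, *COL4A2*, *LAMA4* and *AGRN* were higher in the same comparison. Between the stages, 0 of the 7 were called in 6hPR RPE, and 1 was called, higher, in 6hPR + FGF2 RPE. *AGRN* was higher at E5 in both, *COL4A2* in 6hPR + FGF2 RPE only, and *COL4A1* and *LAMA4* were called in neither. Of 4 cartilage markers 1 was higher, with sums of 4983 to 7383 in E5, against 1656 to 2228 in E4 developing RPE. Of 15 periocular mesenchyme markers 3 were higher and 5 lower in that comparison, with sums of 56210 to 63088 at E5, against 59804 to 66232 at E4. Also in that comparison, 4 of 6 neural retina progenitor genes were higher (median 2.95; sums of 575 to 15581 at E5, against 891 to 1067 at E4), as were 5 of 11 neuron genes (median 1.75; 6670 to 20390 at E5, against 5699 to 7135 at E4), with replicate 2 the highest E5 library in both. Of 13 RPE and pigment genes 8 were higher (sums of 945893 to 1329755 at E5, against 527718 to 619609 at E4), and none of these 3 lists had a gene called lower. In 6hPR + FGF2 against developing RPE, where *COL8A1* and *COL8A2* fell at E5 and *COL6A3*, *COL26A1* and *COL18A1* at E4, 1 mesenchyme marker was higher and 6 were lower at E5 (sums of 32170 to 52460 against 56210 to 63088), and 2 were higher and 6 lower at E4 (38088 to 65359 against 59804 to 66232). In E5 6hPR against developing RPE, where *COL8A1* also fell, 0 of the 15 mesenchyme markers were called. The sums of 44987 to 52012 in E5 6hPR RPE were nevertheless all below the 56210 to 63088 in E5 developing RPE. Between E5 and E4 in 6hPR + FGF2 RPE, 2 of these markers were higher and 7 lower, and in 6hPR RPE 1 was higher and 6 were lower. E5 6hPR + FGF2 replicate 3, the lowest library of its group for *COL3A1* and *COL8A1*, had the lowest mesenchyme sum of all 18 libraries (32170). In E5 6hPR + FGF2 against developing RPE, 5 of the 7 endothelial markers were lower and 1 higher, with sums of 23353 to 27338 against 28587 to 39390. In E5 6hPR RPE, where *COL4A1* and *COL4A2* fell, the endothelial sums were 25999 to 31476, with 1 of the 7 markers lower and 0 higher than in developing RPE. In E4 6hPR RPE, where neither collagen IV gene was called, the sums were 24126 to 33036, with 4 markers higher and 0 lower. Cartilage sums were 1043 to 1487 in E4 6hPR + FGF2 and 3517 to 5271 in E4 6hPR RPE, against 1656 to 2228 in E4 developing RPE. In E4 6hPR against developing RPE, 1 of the 4 cartilage markers was higher and 0 were lower, with a list median of -0.79. At E5, where *COL20A1* was also highest in 6hPR RPE, the cartilage sums overlapped (6060 to 8832 in 6hPR and 4983 to 7383 in developing RPE). In that comparison 0 of the 4 markers were higher and 2 were lower (median -0.56). The part of these cell types in the differences was not tested.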

How the data were processed

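RNA-seq values of 18 libraries (6 groups of 3) were analysed. The deposited values are normalized counts, a signal the authors made by trimming reads with Cutadapt and Trim Galore, aligning them with STAR in 2 passes to GRCg6a, counting them per Ensembl gene with StringTie, dropping genes with fewer than 10 raw counts and scaling libraries by DESeq2 size factors. Which versions they ran is not given in the sources used here. Multiplied by the size factor, all values came within 1e-06 of whole reads, which served the count models below.

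Group means over all 18 libraries were fitted by limma (version 3.58.1, R 4.3.3) with a variance trend, after a pseudocount of 0.5 was added and log2 taken, so folds of low genes are understated. Genes summing to under 10 were left out (18287 kept). P-values were two-sided and Benjamini-Hochberg adjusted over all genes of each of 12 comparisons. The fit was tested on simulated data. Per comparison, up to 4 called increases and 4 called decreases among genes averaging 50 or more were named, and genes named in 3 or more comparisons, with the chain partners of collagens I and IV and laminin, are given for every library. Other lists name up to 2 genes each. *COL2A1*, *COL5A1*, *COL5A2*, *COL6A1*, *LAMA1*, *LAMA4*, *LAMB2* and *HSPG2* are given beyond this rule, as is *LAMB3*, for their calls in several comparisons or their class. The genes and lists were chosen with earlier results of these data known.

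Alternatives were a pseudocount of 5, no filter, a mean of 10 or more, TMM scaling, quantile normalization, a fit of only the groups compared, the replicate number as a block, count models fitted to the recovered reads by edgeR 4.0.16 or by DESeq2 1.42.0, and each library left out in turn. Limits for a count of 0 use 3 reads per library and cover counting error only. All 38 symbols matched the RefSeq table of GRCg7b, used for names and neighbours only. Sequences and coordinates were not used here.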

Additional observations from a re-analysis of the deposited data

Results flagged for a closer look

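The responses of 8 of the 38 genes differed between the stages by the test of the E5 response minus the E4 response, and are listed as log2 values. For 6hPR against developing RPE the differences were -2.25 for *COL8A1*, -0.64 for *COL5A1* and 0.54 for *COL9A1*. For 6hPR + FGF2 against developing RPE they were -2.32 for *COL8A1*, -1.44 for *COL3A1*, -1.36 for *COL8A2*, -1.34 for *COL9A2*, -0.67 for *COL5A1*, -0.54 for *COL2A1* and 1.37 for *LAMA5*. Both sets share the developing libraries.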

How the results depend on the processing

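Of 112 calls of a gene in a comparison, 54 held under all 9 alternatives and with each library left out, and 0 reversed. Calls lost numbered 20 in fits of only the groups compared, 14 under quantile normalization, 7 with the replicate block, 2 each under TMM scaling and edgeR, and 0 under the other 4 alternatives, and 54 were lost with at least 1 library left out; the cause was not tested. Of the counts of called genes, 100 of 108 under alternatives stayed within 1.5 times. The exceptions were 6hPR + FGF2 against 6hPR RPE at E4 (main 4, groups compared only 1, DESeq2 7) and at E5 (main 10, groups compared only 20), and the stage differences in response for 6hPR against developing (main 3, groups compared only 1, DESeq2 6) and for 6hPR + FGF2 against 6hPR (main 0, quantile 1, groups compared only 3, DESeq2 5).

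With 1 library left out, counts ran from 13 to 22 (developing), 5 to 9 (6hPR) and 7 to 15 (6hPR + FGF2) for E5 against E4; from 8 to 11 (E5) and 3 to 10 (E4) for 6hPR against developing; from 10 to 15 (E5) and 9 to 13 (E4) for 6hPR + FGF2 against developing; from 5 to 9 (E5) and 1 to 5 (E4) for 6hPR + FGF2 against 6hPR; and from 0 to 6, 1 to 10 and 0 to 6 for the stage differences in response to 6hPR, to 6hPR + FGF2 and between them.

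No consistent pairing by replicate number was seen. Over 27 same-numbered pairs the correlation of deviations ran from -0.23 to 0.295, with 5 above 0.1 and no comparison with every pair above 0.1. Whether same-numbered libraries shared a collection day was not tested. With the replicate number as a block, 20, 8 and 15 genes were called for E5 against E4 (developing, 6hPR, 6hPR + FGF2), 8 and 8 for 6hPR against developing (E5, E4), 11 and 14 for 6hPR + FGF2 against developing, 11 and 4 for 6hPR + FGF2 against 6hPR, and 2, 7 and 0 for the stage differences. Over all genes, the share of higher calls under quantile normalization was 43.8% (main 56.7%) for E5 against E4 in 6hPR + FGF2 RPE, 47.7% (57.3%) in 6hPR RPE, 46.1% (52.5%) for E5 6hPR + FGF2 against developing, 46.7% (53.0%) for E5 6hPR + FGF2 against 6hPR, and 54.1% (64.1%) for the stage difference in 6hPR + FGF2 against 6hPR.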
